A study of Mus musculus with 6 samples.

Results

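Matricellular glycoproteins are secreted proteins that sit in the extracellular matrix and adjust how cells attach, migrate and receive growth factors, rather than bearing load as fibrillar collagen does. They act through integrins, CD44, CD47, syndecans and LRP1, and several of them bind collagen or fibronectin directly. MRC2, also called Endo180 or uPARAP, is a surface receptor that takes up collagen and its fragments for breakdown in lysosomes. Here 10 genes of this kind were followed: Spp1, Fn1, Sparc, Thbs1, Thbs2, Tnc, Fbln1, Fbln2, Lgals3 and Mrc2. They were picked by gene name from a table of 54532 genes, with the contrast described below already known, so their values are given as a description and no p-value is given for them. All 10 names matched 1 row each, 9 had at least 1 read in some library, and 8 had a mean FPKM of at least 1. FPKM is the number of sequenced fragments scaled for gene length and library depth, so it allows levels of different genes to be set side by side.

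The libraries came from RNA labelled MIN6, a mouse insulinoma line used as a model of pancreatic beta cells. The 3 control libraries carry the name shc and the 3 knockdown libraries the name sh2, with the genotype given as PP2Ac knockdown, which targets the catalytic subunit of protein phosphatase 2A. The labels give no lipid treatment, time, clone or shRNA sequence for either group, and no source says that the replicates were separate cultures, so the spread between them may be technical. Each library held 14614737 to 16030939 reads assigned to genes, as worked back from the deposited FPKM and gene lengths.

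The labels were checked on the targeted gene and on beta cell markers. Ppp2ca, which encodes the alpha catalytic subunit, had a mean of 37.6 ± 4.33 FPKM in the control group against 10.8 ± 0.617 FPKM after knockdown (SD, n = 3). Ppp2cb, the beta subunit gene, had 101 ± 10.6 and 86.9 ± 3.45 FPKM. Of 13 beta cell markers, 11 had a mean FPKM under 1 and 7, Ins1 and Ins2 among them, had no read in any library. The summed level of all 13 markers was 3.01 to 4.70 FPKM in control and 8.16 to 9.78 FPKM in knockdown. The 2 that were tested, Pdx1 (mean 1.68 FPKM in control, 3.96 FPKM in knockdown) and Mafa (1.78 and 4.86 FPKM), were higher in knockdown. With no read for Ins1 or Ins2, the marker levels do not match the beta cell label. The reason for this mismatch was not tested. The cells are therefore called by their labels only, and their identity is not established here.

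RefSeq promoters on GRCm38.p6 were found for 7 of the 10 members, with 10 upstream windows in all. Only 3 windows lie outside every exon and every gene of the GENCODE M21 annotation, and these are shown. They belong to Spp1, the most abundant member, which was lower in knockdown, Thbs2, which was higher, and Fbln1, which had no reads. Each is the 250 bases before the RefSeq start, read 5′ to 3′ on the strand of the gene, and capitals mark a match to TATAAA on either strand.
Spp1, chr5:104434861-104435110, plus strand: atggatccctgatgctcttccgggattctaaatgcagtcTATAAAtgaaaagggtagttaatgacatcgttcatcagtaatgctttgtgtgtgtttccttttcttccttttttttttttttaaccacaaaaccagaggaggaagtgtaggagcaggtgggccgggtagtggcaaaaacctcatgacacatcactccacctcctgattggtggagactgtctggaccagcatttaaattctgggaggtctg
Thbs2, chr17:14694263-14694512, minus strand: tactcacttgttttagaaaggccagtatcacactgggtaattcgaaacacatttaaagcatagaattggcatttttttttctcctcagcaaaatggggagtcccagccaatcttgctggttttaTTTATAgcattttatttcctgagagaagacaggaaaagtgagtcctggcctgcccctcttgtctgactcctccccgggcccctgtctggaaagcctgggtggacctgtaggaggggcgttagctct
Fbln1, chr15:85205699-85205948, plus strand: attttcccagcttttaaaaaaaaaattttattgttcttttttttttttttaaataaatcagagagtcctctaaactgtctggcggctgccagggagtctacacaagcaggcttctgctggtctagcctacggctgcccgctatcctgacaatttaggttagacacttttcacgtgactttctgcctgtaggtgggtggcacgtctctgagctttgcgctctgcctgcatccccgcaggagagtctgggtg
The match began 211 bases before the start in Spp1, and in Thbs2 it lay on the opposite strand at 126 bases before the start. Such a match was present in 12.4% of the 32851 RefSeq promoter windows of this length. None of the 3 windows held TGANTCA, the AP-1 motif (6.75% of all windows), GGAATG, the TEAD motif (12.6%), or GGGCGG, the SP1 motif (32.7%), on either strand. GC content was 43.6% for Spp1, 46.8% for Thbs2 and 46.4% for Fbln1, below the median of 52.4% over all windows. Of the windows not shown, those of Tnc, Fbln2 and Lgals3 and another of Fbln1 held GGGCGG, and those of Tnc held TATAAA. Their GC content was above this median for Lgals3 (66.0%), Fbln2 (58.8%), Sparc (54.0%) and Fbln1 (62.4%). It was below for Tnc (44.8% and 51.2%) and another Spp1 window (35.6%).

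The members split into a set that was higher, a pair that was lower and fibronectin, which did not separate. Of the 8 members that reached a mean of 1 FPKM, 5 were higher in knockdown (Mrc2, Thbs1, Thbs2, Sparc and Fbln2). Another 2 were lower (Spp1 and Lgals3) and Fn1 did not pass a limma adjusted p of 0.05. Mrc2, with a control mean of 0.525 FPKM, reached a mean of 1 only through its knockdown libraries. Over all 11652 genes tested 62.4% passed, 33.3% higher and 29.1% lower, and since the members were chosen with this contrast known their count is a description. The 3 control and 3 knockdown libraries did not overlap for 7 of these 8 members, against 68.1% of all tested genes. Their median log2 difference was 1.05, against 0.03 over all tested genes. Differences are knockdown minus control of log2(FPKM + 1), a scale on which genes of low level show less than their full change. In these bulk RNA samples, fewer cells that express a gene and less of its RNA per cell cannot be told apart.

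**Figure D1:**
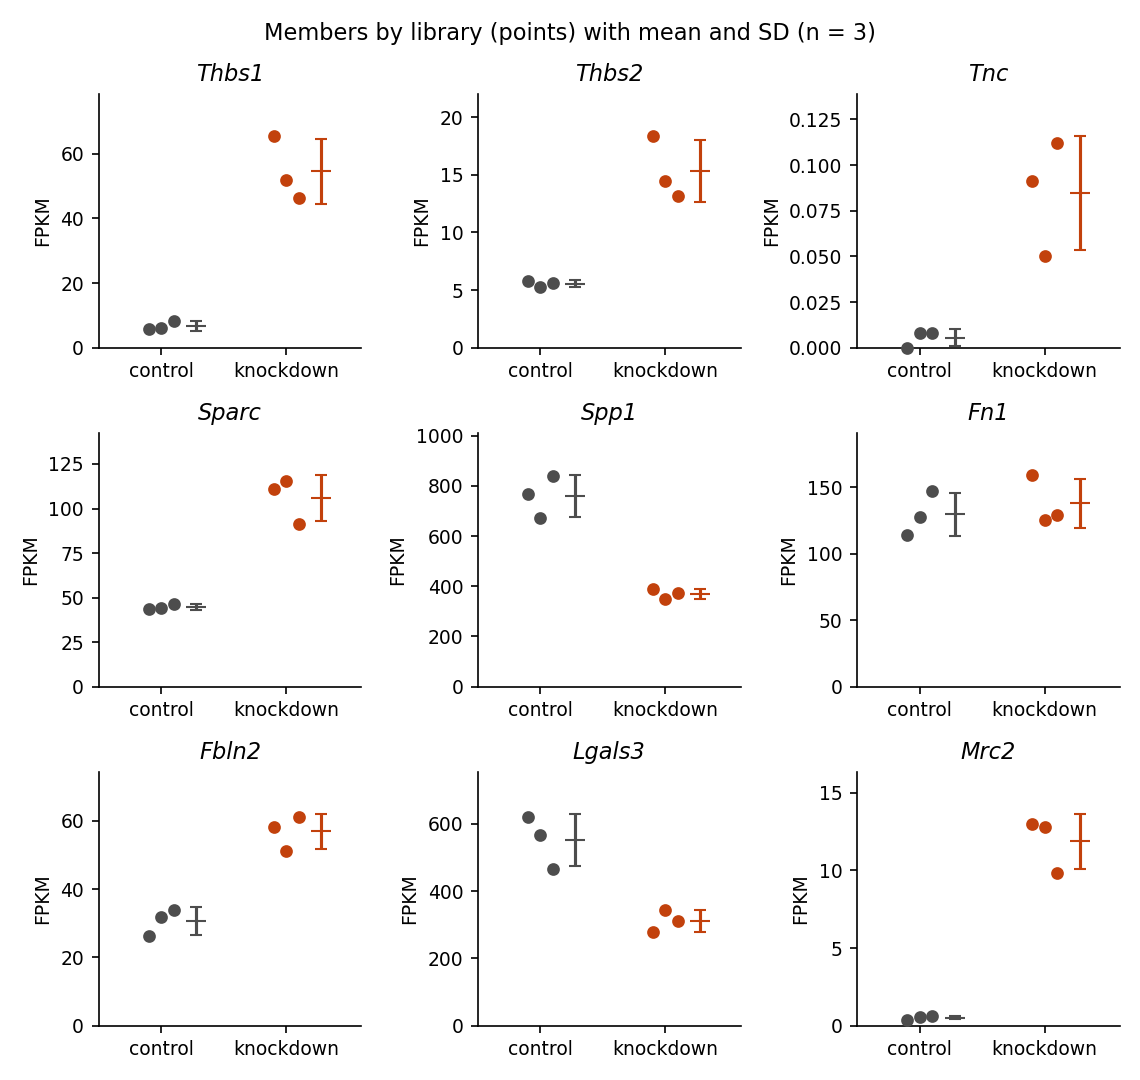
Level of 9 members in FPKM (linear axes from 0) in each library, 3 control (grey) and 3 knockdown (orange), with the mean and SD beside the points. Only Fn1 shows overlapping groups; Tnc reaches 0.112 FPKM at the most, and Fbln1, with no reads, is not drawn.

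The thrombospondin genes Thbs1 and Thbs2 encode secreted trimers that bind CD47, integrins and collagen, and the product of Thbs1 also activates latent TGF-beta. Thbs1 (ENSMUSG00000040152, chromosome 2, 118111876 to 118127133, plus strand, GRCm38) was at 5.68, 5.95 and 8.32 FPKM in control libraries 1 to 3 and at 65.5, 51.8 and 46.3 FPKM in knockdown libraries 1 to 3. Every knockdown library lay above every control library, by 5.56-fold at the least and 11.5-fold at the most, and the ratio of the means was 8.19. The log2 difference was 2.86 (SE 0.158), rank 17 among the rises of the 11652 tested genes. Thbs2 (ENSMUSG00000023885, chromosome 17, 14665500 to 14694235, minus strand) had 5.81, 5.27 and 5.62 FPKM in control and 18.4, 14.4 and 13.2 FPKM in knockdown. Its groups did not overlap either, with a ratio of means of 2.76 and a log2 difference of 1.30 (SE 0.114). Knockdown library 1 was the highest of its group for both genes.

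The balance of the 2 thrombospondin transcripts differed between the groups. Per length, Thbs1 was present at 0.978, 1.13 and 1.48 times the level of Thbs2 in the control libraries. In the knockdown libraries this ratio was 3.56, 3.58 and 3.51, a narrow spread around a mean of 3.55 ± 0.0405 (SD, n = 3). Smoc2, the protein-coding gene next to Thbs2 at 260.7 kb with no other protein-coding gene between them, had 5 reads in all 6 libraries together.

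Sparc, also called osteonectin, binds collagen and calcium and takes part in collagen fibril assembly. Sparc (ENSMUSG00000018593, chromosome 11, 55394500 to 55423183, minus strand) had 43.4, 44.2 and 46.5 FPKM in control and 111, 116 and 91.2 FPKM in knockdown. The control libraries were close together, with a coefficient of variation of 3.61%, and all 3 lay below the lowest knockdown library. The ratio of means was 2.37 and the log2 difference 1.22 (SE 0.0958). The targeted gene Ppp2ca lies on the same chromosome, 3267 kb away with 50 protein-coding genes between.

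The fibulins are elastic fibre and basement membrane glycoproteins, represented here by Fbln2 and Fbln1. Fbln2 (ENSMUSG00000064080, chromosome 6, 91212455 to 91272540, plus strand) had 26.2, 31.8 and 33.9 FPKM in control and 58.3, 51.3 and 61.2 FPKM in knockdown. The groups did not overlap, the ratio of means was 1.86 and the log2 difference was 0.88 (SE 0.109). Fbln1 (ENSMUSG00000006369, chromosome 15, 85205949 to 85286535, plus strand) had 0 reads in all 6 libraries, where 3 reads, the limit that a count of 0 allows, would have given at most 0.0460 FPKM. This limit covers counting error only.

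Tenascin-C, encoded by Tnc, is a large hexameric glycoprotein of wounds, tumours and developing tissue. Tnc (ENSMUSG00000028364, chromosome 4, 63959785 to 64047015, minus strand) had 0, 1 and 1 reads in control and 11, 6 and 13 reads in knockdown, which corresponds to 0.112 FPKM at the most. It was therefore not among the genes tested. The 2 reads of control against 30 of knockdown give a depth-adjusted ratio of 15.5, with a 95% exact interval of 3.94 to 134 that covers counting error only. A gene on the opposite strand, 8030451A03Rik, overlaps Tnc and had at most 0.0820 FPKM, and without a stated strand setting reads of the pair cannot be told apart.

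Fibronectin, encoded by Fn1, is a main scaffold glycoprotein of the matrix and binds integrin alpha5 beta1. Fn1 (ENSMUSG00000026193, chromosome 1, 71585520 to 71653200, minus strand) had 114, 128 and 147 FPKM in control and 159, 126 and 129 FPKM in knockdown. The groups overlapped: knockdown library 1 was the highest of all 6, and the other two knockdown libraries lay inside the control range. The log2 difference was 0.09 (SE 0.120), with a 95% limma interval from -0.19 to 0.36, or 0.877-fold to 1.29-fold on this scale. Without knockdown library 1 the difference was -0.020. Fn1 had 21393 to 28784 reads per library, more than any other member in all 6 libraries.

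Osteopontin, encoded by Spp1, is a phosphorylated glycoprotein that binds integrins and CD44 and is made by bone cells, macrophages and duct epithelium. Spp1 (ENSMUSG00000029304, chromosome 5, 104435118 to 104441050, plus strand) had 767, 673 and 841 FPKM in control and 390, 350 and 372 FPKM in knockdown. The groups did not overlap, and the knockdown mean was 48.7% of the control mean, 371 ± 19.7 against 760 ± 84.0 FPKM (SD, n = 3). The log2 difference was -1.03 (SE 0.0985). Its chromosomal neighbours of the same phosphoglycoprotein family and Sparcl1, a gene related to Sparc, were near 0: Mepe, at 96.5 kb, and Ibsp had no reads, Dmp1 had 1 read and Sparcl1 had 2 reads over all 6 libraries. Gm42793, an unclassified transcript on the same strand within the Spp1 gene, had a mean of 2.06 FPKM in control against 0.472 FPKM in knockdown, and its reads may be shared with Spp1.

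Galectin-3, encoded by Lgals3, is a lectin that binds galactose-containing sugars on matrix and surface glycoproteins, inside and outside the cell. Lgals3 (ENSMUSG00000050335, chromosome 14, 47367751 to 47386160, plus strand) had 620, 568 and 467 FPKM in control and 279, 343 and 310 FPKM in knockdown. The highest knockdown library lay below the lowest control library. The knockdown mean was 56.4% of the control mean, 311 ± 31.7 against 551 ± 77.9 FPKM (SD, n = 3), a log2 difference of -0.82 (SE 0.122). Control library 3 was the highest of its group for Spp1 and the lowest for Lgals3.

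Spp1 and Lgals3 are also made by macrophages, so the macrophage markers are given beside them. Of 9 macrophage markers, 6 had a mean FPKM under 1, and Adgre1, Itgam and C1qa, which define the cell type, had no read in any library. The summed level of the 9 was 34.6 to 38.4 FPKM in control and 44.6 to 53.4 FPKM in knockdown. Most of it came from Cd14 (mean 18.2 FPKM) and Cd68 (16.5 FPKM) in control. In knockdown most came from Cd14 (44.2 FPKM), with Cd68 at 2.27 FPKM. Of the 3 that were tested, Cd14 and Lyz2 were higher and Cd68 was lower, where 33.3% of all tested genes were higher and 29.1% lower. Of 9 duct markers, 7 were under 1, Epcam had no reads, and Krt18 and Sox9 were lower. Krt7 (0.0178 to 0.251 FPKM) and Muc1 (0.332 to 0.821 FPKM), both under 1 and not tested, were higher without overlap. The summed level was 25.2 to 28.9 FPKM in control and 9.40 to 12.0 FPKM in knockdown, most of it from Krt18 and Sox9. The part of duct markers in the Spp1 difference was not tested.

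Mrc2 showed the largest difference of the 8. Mrc2 (ENSMUSG00000020695, chromosome 11, 105292643 to 105351139, plus strand) had 0.384, 0.570 and 0.621 FPKM in control, from 41, 59 and 68 reads, and 13.0, 12.8 and 9.85 FPKM in knockdown, from 1339, 1310 and 982 reads. Each knockdown library was at least 15.9 times and at most 33.8 times any control library, and the ratio of means was 22.6. The log2 difference was 3.07 (SE 0.122), rank 9 among the rises of all tested genes. The added 1 FPKM holds this value down, since limma voom on the recovered reads gave 4.49 (SE 0.216) and a pseudocount of 0.1 gave 4.27. Set against Col1a1, which encodes the main chain of the collagen that MRC2 takes up, Mrc2 was at 0.0454, 0.0560 and 0.0554 times the Col1a1 level in control and at 0.144, 0.152 and 0.114 times in knockdown.

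Ordered by level per length, the control libraries had Spp1 first (760 FPKM), then Lgals3 (551), Fn1 (130), Sparc (44.7), Fbln2 (30.6), Thbs1 (6.65), Thbs2 (5.57), Mrc2 (0.525), Tnc and Fbln1. Among neighbours above 1 FPKM in this order, only Thbs1 and Thbs2 had overlapping ranges over the 3 libraries. The order of the means was the same in knockdown, but Fbln2 (56.9 FPKM) and Thbs1 (54.5) then overlapped and Thbs1 and Thbs2 (15.3) did not. Some ratios between members separated the groups: Spp1 over Sparc was 15.2 to 18.1 in control and 3.03 to 4.07 in knockdown, and Spp1 over Fn1 was 5.27 to 6.70 and 2.45 to 2.89. Others overlapped: Spp1 over Lgals3 was 1.19 to 1.80 in control and 1.02 to 1.40 in knockdown, and Fbln2 over Sparc was 0.603 to 0.730 and 0.443 to 0.671.

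The total output of the members was dominated by the pair that was lower. The 10 genes summed to 1529 ± 65.3 FPKM in control, against 1064 ± 30.9 FPKM with the knockdown (SD, n = 3), and no control library fell within the knockdown range. Spp1 and Lgals3 made up 84.4% to 87.6% of that sum in control and 61.1% to 66.0% in knockdown. Without this pair the sum went the other way, from 218 ± 23.1 to 383 ± 38.6 FPKM. As a share of reads, which gives long transcripts more weight, the members took 0.417% to 0.456% in control and 0.389% to 0.440% in knockdown, and these ranges overlapped.

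**Figure D2:**
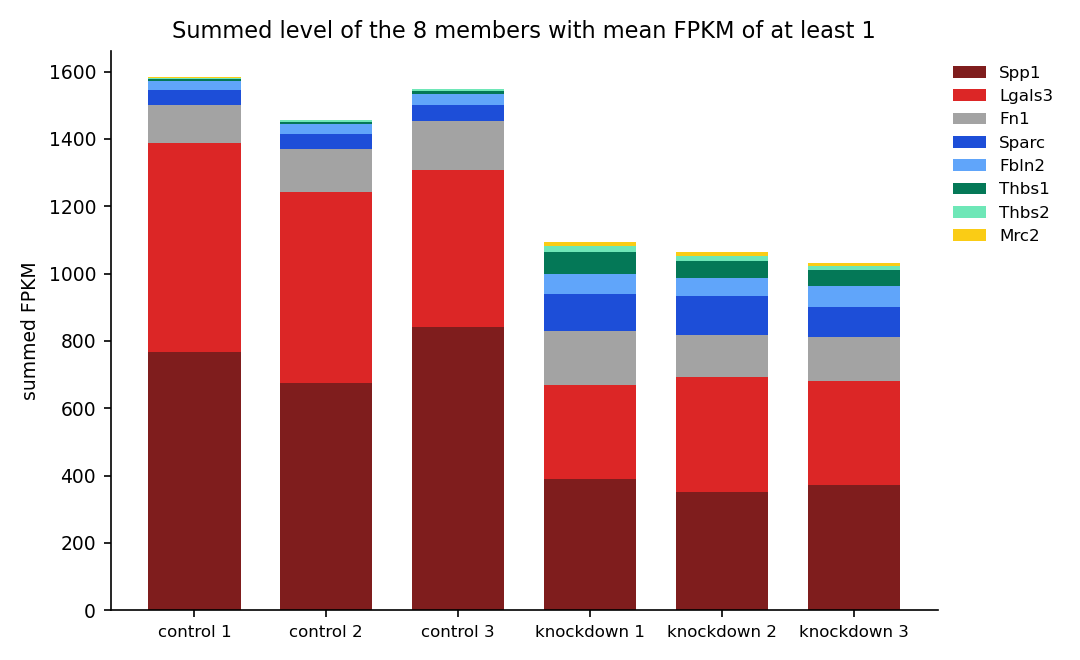
Summed FPKM (linear axis from 0) of the 8 members whose mean reached 1 FPKM, stacked by gene, 1 bar for each library. The Spp1 and Lgals3 segments fill 84.4% to 87.6% of the control bars and 61.1% to 66.0% of the knockdown bars, and the Sparc, Fbln2 and Thbs1 segments are thicker in knockdown.

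The genes around the members were taken from 4 lists: other matricellular genes, receptors, collagen uptake with pericellular proteolysis, and matrix processing. Of the 87 genes listed, 43 were abundant enough to be tested (mean of 1 FPKM or more), and 26 were higher, 8 lower and 9 did not pass limma's adjusted p of 0.05. Among all tested genes 62.4% passed, 33.3% higher and 29.1% lower, and the median log2 difference was 0.03, against 0.48 for the 43. By list the share that passed was 92.3% for matricellular genes, 50.0% for receptors, 75.0% for collagen uptake and 91.7% for matrix processing. The counts by list below are a description, to be read beside these shares of all tested genes. The lists were chosen with earlier results of these data known, and the genes named first are those with the largest differences. Their adjusted p-values are therefore a description too and not independent tests.

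Among other matricellular genes, relatives of the members were mostly higher. Of 36 listed, 13 were tested, 10 were higher, 2 lower and 1 did not pass, with a median log2 difference of 1.19. Among the 10 is Tgfbi (0.892 FPKM in control, 2.19 FPKM in knockdown), which reached a mean of 1 FPKM only through its knockdown libraries. This favours a higher call. Wisp2, a CCN family gene, rose from 1.58 ± 0.504 to 14.2 ± 0.775 FPKM (SD, n = 3; log2 difference 2.57, limma adjusted p = 4.63e-06). Ctgf, the CCN gene for connective tissue growth factor, rose from 8.25 ± 1.83 to 39.4 ± 3.38 FPKM (log2 difference 2.14, limma adjusted p = 1.16e-05). The fibulin relative Fbln5 rose from 3.43 ± 0.184 to 15.9 ± 1.31 FPKM (log2 difference 1.93, limma adjusted p = 2.14e-06). Lgals3bp, which encodes a secreted glycoprotein bound by galectin-3, rose from 50.6 ± 5.73 to 178 ± 5.89 FPKM (log2 difference 1.80, limma adjusted p = 4.45e-06), so the ligand was higher where its lectin Lgals3 was lower. The 2 that fell, named after their values were seen, were the tenascin gene Tnxb (-1.04) and the galectin gene Lgals8 (-0.39, log2 differences).

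By family, Thbs3 was higher with Thbs1 and Thbs2 (log2 difference 1.30), and Thbs4 and Comp of the same family were under a mean FPKM of 1 and not tested. Fbln5 (1.93) and Efemp2 (1.23), the other tested fibulins, were higher like Fbln2. Galectins went both ways: Lgals9 (1.19) was higher, Lgals8 (-0.39) was lower like Lgals3, and Lgals4 was under 1. Lgals1 (0.28) was counted as higher with a limma adjusted p of 0.0409, but it passed in 0 of the 6 fits that leave out 1 library (adjusted p up to 0.128) and had an adjusted p of 0.533 with no filter on low values. Of the tenascin genes, Tnxb was the only one to reach a mean of 1 FPKM. These family members were named after their values were seen.

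Among receptors of the glycoproteins Sdc1 stood out, and of the main fibronectin receptor Itga5 did not pass, while the call of Itgb1 depended on the model. Of 18 listed, 10 were tested, 4 were higher, 1 lower and 5 did not pass, with a median log2 difference of 0.17. Sdc1, a heparan sulfate proteoglycan receptor of the cell surface, rose from 1.27 ± 0.124 to 15.5 ± 0.535 FPKM (SD, n = 3; log2 difference 2.86, limma adjusted p = 3.31e-07). Cd47, which encodes a receptor of thrombospondin-1, fell from 34.7 ± 1.42 to 23.7 ± 1.27 FPKM (log2 difference -0.53, limma adjusted p = 0.000274), while its ligand gene Thbs1 was higher. Itgb5, an integrin subunit of the vitronectin receptor, rose from 71.4 ± 5.37 to 103 ± 2.73 FPKM (limma adjusted p = 0.000463), and Lrp1, an endocytic receptor that clears thrombospondins, rose from 53.5 ± 5.33 to 74.9 ± 7.68 FPKM (limma adjusted p = 0.00372). The 5 that did not pass were Itgav (-0.00051), Itga5 (0.01), Itgb1 (0.22), Cd44 (0.12) and Sdc4 (0.07, all log2 differences), named after their values were seen. Itgb1 had a limma adjusted p of 0.0558 and passed under 5 of 14 other settings: voom (0.0428), the replicate block (0.0224), a mean FPKM of at least 5 (0.0498), and without control library 3 (0.0199) or knockdown library 2 (0.0481). The other 4 passed under none.

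Genes for the breakdown of collagen around the cell went both ways. Of 15 listed, 8 were tested, 4 were higher, 2 lower and 2 did not pass, with a median log2 difference of 0.24. Plaur, which encodes the urokinase receptor that associates with MRC2 at the cell surface, fell from 87.9 ± 14.6 to 33.0 ± 2.80 FPKM (SD, n = 3; log2 difference -1.38, limma adjusted p = 5.04e-05). Its ligand gene Plau had 1 read in all 6 libraries. Mmp14, a membrane-bound collagenase gene, rose from 16.2 ± 0.271 to 35.9 ± 2.65 FPKM (log2 difference 1.10, limma adjusted p = 1.13e-05). Ctsl, a lysosomal protease gene, fell from 381 ± 26.7 to 181 ± 11.3 FPKM (log2 difference -1.07, limma adjusted p = 2.55e-05), and Plat, a plasminogen activator gene, rose from 1.26 ± 0.112 to 2.88 ± 0.269 FPKM (log2 difference 0.78, limma adjusted p = 0.000309). Thus Mrc2 and Mmp14 were higher in the same libraries in which Plaur and Ctsl were lower.

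Matrix processing and crosslinking genes were mostly higher. Of 18 listed, 12 were tested, 8 were higher, 3 lower and 1 did not pass, with a median log2 difference of 0.71. Adamts1, a protease gene that cuts proteoglycans and thrombospondins, rose from 4.34 ± 0.503 to 18.2 ± 3.09 FPKM (SD, n = 3; log2 difference 1.84, limma adjusted p = 1.38e-05). Bmp1, which encodes procollagen C-proteinase, rose from 6.43 ± 0.557 to 17.1 ± 0.946 FPKM (log2 difference 1.28, limma adjusted p = 9.69e-06), and the collagen chaperone gene Serpinh1 rose from 212 ± 4.78 to 413 ± 39.6 FPKM (log2 difference 0.95, limma adjusted p = 4.85e-05). The 3 that fell were Loxl4, a lysyl oxidase gene that went from 103 ± 5.54 to 42.7 ± 0.901 FPKM (log2 difference -1.25, limma adjusted p = 5.50e-06), and Htra1 (-0.94) and Tgm2 (-0.83), named after their values were seen. Tgm2 encodes transglutaminase 2, which crosslinks fibronectin and osteopontin.

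**Figure D3:**
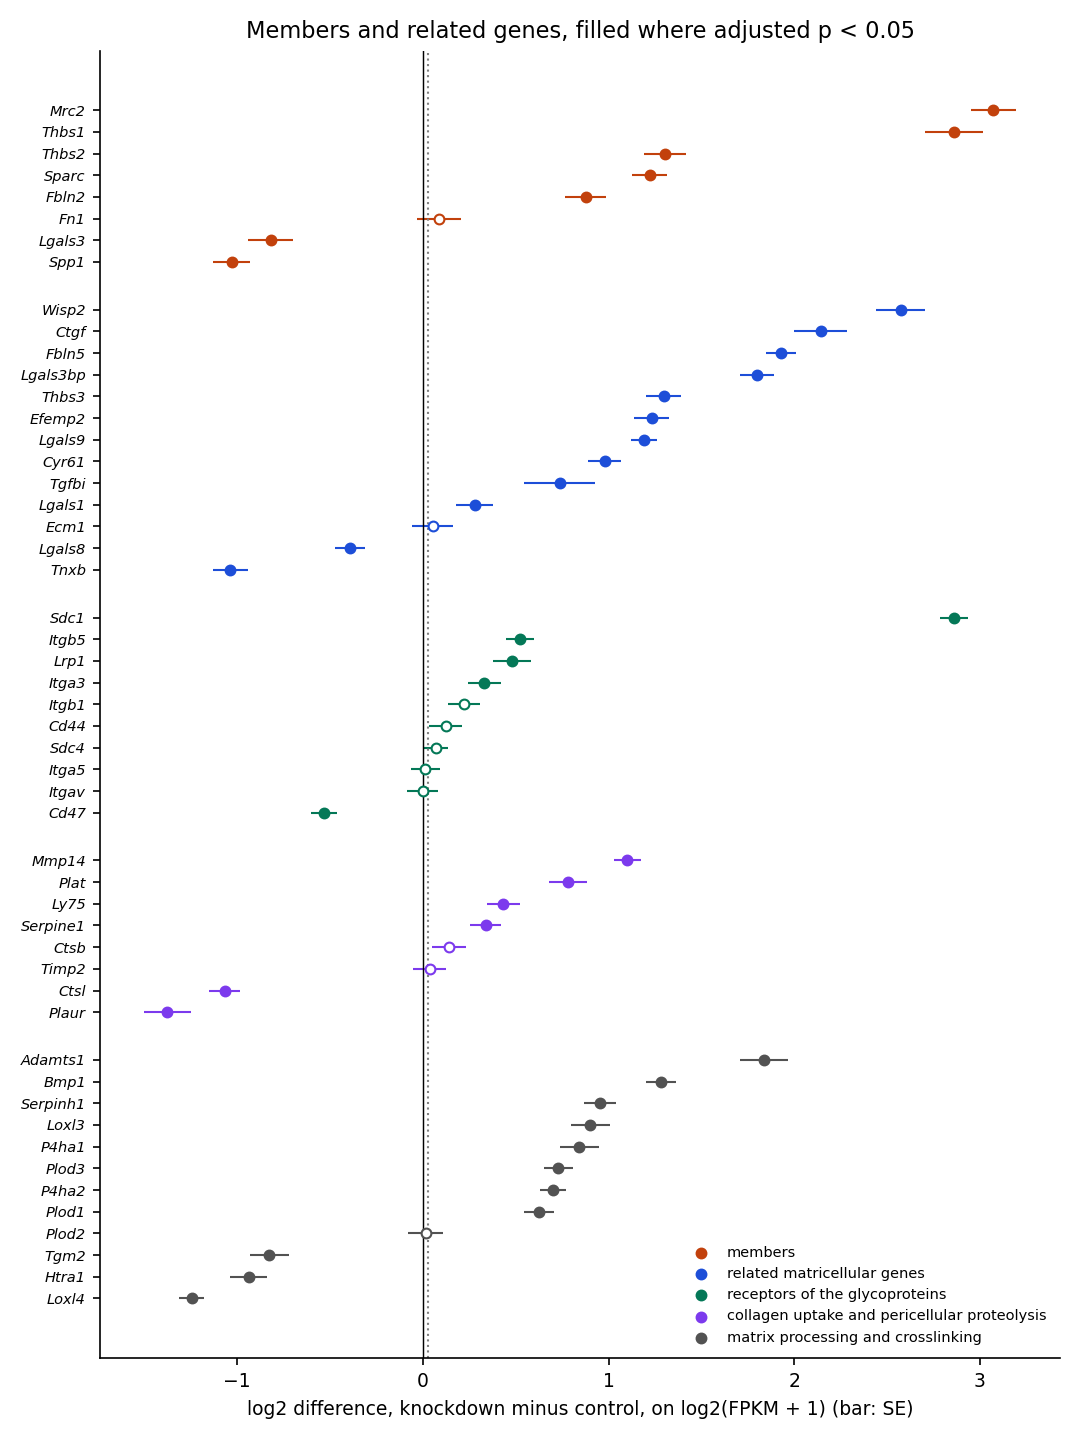
Log2 difference, knockdown minus control on log2(FPKM + 1), with its SE for the 8 tested members and the 43 tested related genes, grouped by list; filled points passed a limma adjusted p of 0.05 and the dotted line is the median of all tested genes, 0.03. Mrc2 (3.07), Thbs1 (2.86) and Sdc1 (2.86) lie farthest to the right and Plaur (-1.38) farthest to the left.

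Fibroblasts and stellate cells make most of these glycoproteins in the pancreas, so their markers are given beside the members that were higher. Of 12 markers, 7 had a mean FPKM under 1, and Lum and Rgs5 had no reads in any library. All 5 that were tested, Col1a1, Col1a2, Col3a1, Pdgfra and Pdgfrb, were higher in knockdown, as were 33.3% of all tested genes. Col3a1 (0.834 FPKM in control) and Pdgfra (0.734) reached a mean of 1 FPKM only through their knockdown libraries, which favours a higher call. Among markers under 1, Dcn and Acta2 were higher without overlap. Thy1, Fap and Des overlapped, Thy1 and Fap with lower means in knockdown. The summed level of the 12 was 107 to 126 FPKM in control and 279 to 317 FPKM in knockdown. Among 6 endothelial markers 5 were under 1, with sums of 1.71 to 1.94 FPKM in control and 3.09 to 3.24 FPKM in knockdown. Most of these sums came from Eng (1.16 to 2.84 FPKM). Pecam1 (0.0408 to 0.189 FPKM) was also higher without overlap, while Vwf (0.478 to 0.121) and Tek (0.102 to 0.0185) were lower without overlap. The part of these markers in the differences of Sparc, Thbs1, Thbs2, Fbln2 and Mrc2 was not tested.

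The genes closest to Mrc2 and to Spp1 in their profile over the 6 libraries were found by the Euclidean distance between log2(FPKM + 1) values, each gene centred on its own mean, among 10005 other tested protein-coding genes. For Mrc2 they were Serpinf1 (distance 0.213, 14.0 to 115 FPKM), Col6a1 (0.229, 1.83 to 25.9 FPKM) and Atoh8 (0.308, 0.601 to 11.7 FPKM). For Spp1 they were Prune2 (0.0874, 6.29 to 2.50 FPKM), C1qtnf12 (0.0954, 4.92 to 2.02 FPKM) and Lyst (0.122, 4.10 to 1.38 FPKM). All 3 lie far below Spp1 in level, so their likeness is in the size and spread of the difference on this log2(FPKM + 1) scale only. The added 1 FPKM shrinks the change of genes of low level. Ratios of means therefore differ between Spp1 and these genes, and between Mrc2 and its nearest genes.

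The differences of the members were recomputed under 14 other settings. The same 7 members passed under each of them, including voom, under which 63.3% of all tested genes passed, and with no filter on low values Tnc also passed. Mrc2 met the filters of 1 and 5 FPKM only through its knockdown libraries, so those filters do not test it independently. Mrc2 ran from 3.00 to 4.49, Thbs1 from 2.72 to 3.02, Thbs2 from 1.17 to 1.43, Sparc from 1.15 to 1.32 and Fbln2 from 0.77 to 0.95. Spp1 ran from -1.12 to -0.95 and Lgals3 from -0.94 to -0.73. Fn1 ran from -0.020 to 0.18 and passed under none.

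**Figure D4:**
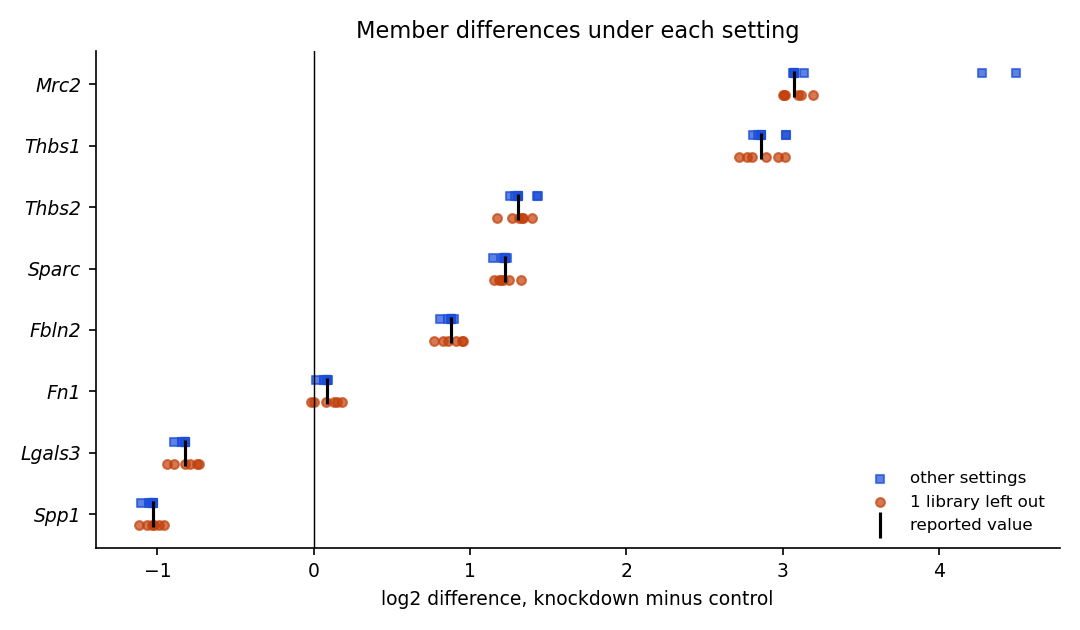
Log2 difference of the 8 tested members (linear axis) as reported (black tick), with 1 library left out (orange circles) and under the other settings (blue squares). Mrc2 moves to 4.27 and 4.49 with a smaller pseudocount and with voom. Fn1 runs from -0.020 to 0.18, and every other member keeps its side of 0 under all 14 settings. The other filters, median-of-ratios scaling and the replicate block leave each difference where it was.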

How the data were processed

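RNA of 6 libraries, 3 per group, was sequenced from TruSeq libraries of Trizol-extracted RNA, per the labels' protocols. The authors deposited FPKM values per gene with the gene length; the builds are GRCm38 and mm10 per the submitters' processing notes, and which aligner and counter were used and how strand was handled is not given in the sources used here. FPKM times length was a whole multiple of 1 step for 100% of values above 0 (within 0.01 of a whole number), which gave reads per gene. The library totals implied by the step were proportional to median-of-ratios size factors of these reads, so the deposited FPKM already carry that scaling.

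Groups were compared in R 4.3.3 by the trended empirical Bayes fit of limma 3.58.1 to log2(FPKM + 1), over genes whose mean reached 1 FPKM, with Benjamini-Hochberg adjustment over all of them and a threshold of 0.05. In data simulated for this comparison on 11780 genes, the fit recovered 41.3% of 63 genes changed 1.5-fold, 87.7% of 65 changed 2-fold and 96.8% of 63 changed 4-fold. Only a small part of the genes was changed in that simulation, at a fixed level of replicate noise. In the real data 62.4% of tested genes passed, so these recovery rates need not hold there. Tables were made with Python 3.11.15, pandas 2.3.3 and scipy 1.17.1.

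The members and the gene lists were chosen with earlier results of these data known. Named genes are the members, the targeted genes, up to 4 genes per list past the threshold with the largest difference, and the 3 genes nearest in profile to the member with the largest rise and to that with the largest fall. Alternatives were another pseudocount, other filters, 3 other scalings, voom, a replicate block and each library left out; FPKM from total recovered reads was added after seeing the data. Replicates of a group differed beyond sampling noise (a chi-square of 7.15 to 11.0 per degree of freedom), and none were merged.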

Additional observations from a re-analysis of the deposited data

How the results depend on the processing

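The 14 settings are 7 other choices of processing or model, 1 more chosen after seeing the data, and 6 that each leave out 1 library. All of them kept the direction and the side of the threshold of the 7 members past it. The other filters, median-of-ratios scaling and the replicate block could not change a direction, since they leave the log2 difference as it was. The count of all genes past the threshold was 7267, and 6473 to 6949 with 1 library left out; with 1 left out, 7 members and 33 to 34 related genes passed, against 7 and 34 with all libraries. With no filter on low values 8 members passed, Tnc being the added one. With a mean FPKM of at least 5, which leaves fewer genes to test, 2208 genes were lower in knockdown in place of 3388. Fn1, which did not pass, ran from -0.020, a change of sign, without knockdown replicate 1 to 0.18 without control replicate 3. Of receptor genes that did not pass, Itga5 ran from -0.015 to 0.069 and Itgav from -0.064 to 0.048 with 1 library left out; Itga5 was also below 0 with total recovered reads (-0.0053), with voom (-0.0048) and with mitochondrial and rRNA genes removed (-0.060), where Sdc4 was -0.0029. Lgals1, called with all libraries, ran from 0.22 to 0.32 and was not past the threshold in any of these 6 fits; Itgb1 passed under 5 settings. Median-of-ratios scaling changed no value, since the deposited FPKM already carry it. FPKM from total recovered reads gave 7238 genes, and voom on recovered reads 7378, or 63.3% of those tested. With the replicate number as a block 7363 genes, 7 members and 35 listed related genes passed. No label says that the numbers pair the libraries. The correlations of same-numbered deviations from the group means were -0.011, 0.159 and 0.052, and not every library correlated best with its own number. Deviations from a mean of 3 libraries depend on each other, so these few values cannot settle whether the libraries were paired. Depth limits Tnc and Fbln1, which had 32 and 0 reads over the 6 libraries.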
